A study of Mus musculus with 10 samples.

Results

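Cell cycle and DNA replication genes were read from the liver RNA-seq libraries of 5 AAV8-Control mice. The set holds 34 genes, chosen by symbol from a list of cyclins, kinases, replication proteins and mitotic proteins, among 15126 genes in the deposited table. The rule uses symbols and no measured value. The livers came from *db/db* mice, which lack a working leptin receptor and become obese and diabetic. The labels give an age of 10 weeks for each animal, with tissue taken 5 weeks after an adeno-associated virus of serotype 8 (AAV8) encoding eGFP had been given by tail vein. The promoter of this vector is not given in the sources used here. The labels call the samples liver and also primary hepatocytes treated with adenovirus in culture, and these descriptions exclude each other. Macrophage and Kupffer cell markers summed to 198 to 405 CPM (a gene's reads scaled to the library's total) and sinusoidal endothelial markers to 113 to 230 CPM, so the samples are described as livers here.

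The adult liver is quiescent: most hepatocytes rest outside the cell cycle and re-enter it after injury or loss of tissue. Cyclin D1 and the E2F factors drive the passage from G1 into S phase, in which the MCM helicase opens the DNA, PCNA holds the polymerases on it, and ribonucleotide reductase with its partner enzymes supplies the deoxynucleotides. FoxM1 and the kinases CDK1, PLK1 and the Auroras then bring the cell into mitosis, the checkpoint proteins watch the spindle, and APC/C with CDC20 starts the separation of the chromosomes.

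Library sizes were 19499795 to 35498596 reads, so a single read was worth 0.0282 to 0.0513 CPM and 3 reads, the smallest count read as detected, 0.0845 to 0.154 CPM. The labels name no batch. The SD over livers holds the spread between these animals together with error from counting and library preparation. The values that follow describe 1 group of livers, with no test between groups.

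The promoters of 5 members are shown because these genes stand for the roles whose levels are described below, the helicase, deoxynucleotide supply, mitotic kinases, the checkpoint and chromosome structure. Each line gives the 200 bases before the RefSeq start on GRCm38.p6, 5′ to 3′ in the direction of the gene. Capitals mark E2F-like strings (TTTCGCGC, TTTGGCGC, TTTCCCGC or TTTGCCGC), CHR-like strings (TTTGAA or TTTAAA) and CCAAT, each searched on both strands, so that ATTGG in capitals is CCAAT on the opposite strand. Mcm5 encodes a helicase subunit (chr8:75109309-75109508, forward strand), Rrm1 the large subunit of ribonucleotide reductase (chr7:102441495-102441694, forward strand), Cdk1 the mitotic kinase (chr10:69352913-69353112, reverse strand), Cdc20 the activator of APC/C (chr4:118437344-118437543, reverse strand) and Mki67 the proliferation antigen Ki-67 (chr7:135716380-135716579, reverse strand).
Mcm5: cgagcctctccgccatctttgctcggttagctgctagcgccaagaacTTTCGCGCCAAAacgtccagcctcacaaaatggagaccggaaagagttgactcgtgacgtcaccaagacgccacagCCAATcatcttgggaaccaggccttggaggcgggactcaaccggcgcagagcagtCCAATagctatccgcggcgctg
Rrm1: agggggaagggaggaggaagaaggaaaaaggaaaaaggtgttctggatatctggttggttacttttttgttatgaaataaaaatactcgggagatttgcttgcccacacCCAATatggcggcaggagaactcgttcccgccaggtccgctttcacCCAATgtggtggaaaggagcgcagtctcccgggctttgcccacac
Cdk1: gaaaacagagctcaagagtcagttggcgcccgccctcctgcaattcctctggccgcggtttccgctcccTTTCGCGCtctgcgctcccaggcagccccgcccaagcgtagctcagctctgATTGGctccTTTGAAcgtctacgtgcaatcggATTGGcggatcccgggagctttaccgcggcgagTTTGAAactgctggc
Cdc20: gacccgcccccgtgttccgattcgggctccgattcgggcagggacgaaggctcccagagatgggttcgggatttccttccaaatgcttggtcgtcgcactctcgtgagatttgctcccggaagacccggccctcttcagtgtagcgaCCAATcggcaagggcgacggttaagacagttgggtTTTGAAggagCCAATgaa
Mki67: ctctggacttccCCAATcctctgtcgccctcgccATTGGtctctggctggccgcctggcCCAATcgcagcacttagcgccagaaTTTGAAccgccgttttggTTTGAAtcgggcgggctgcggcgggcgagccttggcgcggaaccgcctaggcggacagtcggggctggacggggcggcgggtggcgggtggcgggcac

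In the *Mcm5* promoter, an E2F-like string at positions -153 to -146 overlapped another on the opposite strand at -149 to -142, counted back from the start. *Cdk1* held an E2F-like string at -131 to -124 and CHR-like strings at -71 and at -15. *Cdc20* held a single CHR-like string at -18, between CCAAT at -53 and at -8. *Mki67* held CHR-like strings at -116 and -98, and *Rrm1* held CCAAT at -91 and -45 with no string of the other kinds.

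RefSeq promoter windows, from 250 bases before to 50 bases after each start, were matched for 27 of the 34 genes. An E2F-like string lay in the windows of 5 of 27 genes (18.5%), against 4.57% of the 8755 genes that had a window and at least 1 CPM and 2.6% of all 27025 RefSeq genes with a window. These were *Mcm3*, *Mcm5*, *Mcm6*, *Mcm7* and *Cdk1*, so that 4 of the 6 helicase and clamp genes with a window held one (66.7%). CHR-like strings, named after the cell cycle genes homology region first described in promoters of mitotic genes, lay in the windows of 18 of 27 members (66.7%), against 22.3% of the expressed and 30.6% of all genes. Of the 15 mitotic genes with a window, *Bub1* alone had no CHR-like string. CCAAT, known as a site of NF-Y, lay in the windows of 22 of 27 genes (81.5%), against 42.8% and 41.1%. A matching string is a description of the sequence and shows no binding.

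**Figure D1:**
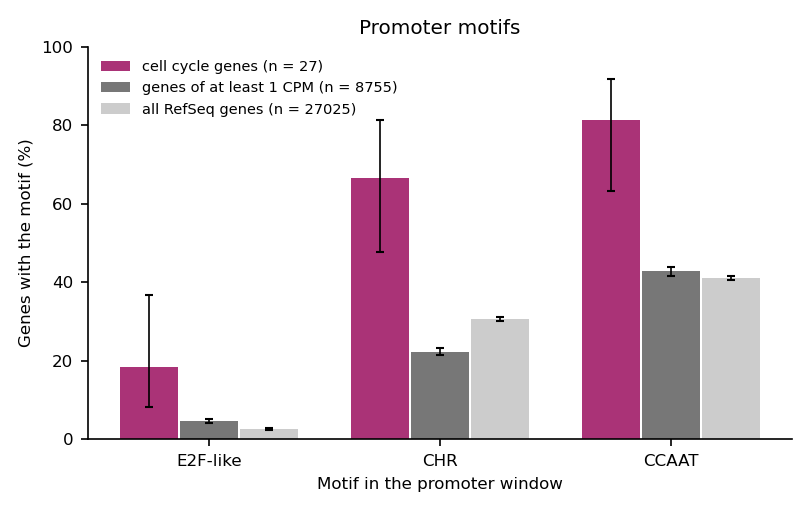
The percentage of genes whose RefSeq promoter window holds each kind of string, for 27 cell cycle genes, 8755 genes of at least 1 CPM and 27025 RefSeq genes, with 95% Wilson intervals as bars that cover counting error only. The cell cycle genes have the tallest column for all 3 kinds, at 18.5%, 66.7% and 81.5%.

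As a set, the cell cycle genes lay below the median of all genes in level per length, with the mitotic genes lowest. Of the 34 genes, 26 (76.5%) had a mean of 1 CPM or more, beside 73.0% of all 15126 genes. Per kilobase of exon, their median level was 0.754 CPM per kilobase, beside 1.6 over all genes, and the median member stood at the percentile 38.6 of all genes. The sets that act before and during replication were near the middle of the liver's genes. Their median levels were 2.26 CPM per kilobase for G1 and S phase entry, 1.85 for the helicase and clamp and 1.55 for deoxynucleotide supply. The 19 mitotic genes had a median of 0.332 CPM per kilobase, at the percentile 29.9. Whether a low level comes from a few dividing cells or from little RNA in each cell cannot be told apart in whole tissue.

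*Pcna*, the sliding clamp of the polymerases, was highest, at 5.52 CPM per kilobase (range 5.15 to 6.12 over the 5 livers). It lay above *Cdkn1a*, which encodes the kinase inhibitor p21, in every liver, with *Cdkn1a* at 3.65 (range 2.72 to 4.24). *Rrm2* followed at 2.87 (range 2.49 to 3.17) and *E2f1* at 2.39 (range 1.99 to 3.01), and these ranges overlapped each other and that of *Cdkn1a*. *Ccnd1*, *Mcm7* and *Mcm3* came next, at 2.26, 2.07 and 1.98 CPM per kilobase, with overlapping ranges. All members outside mitosis had a mean above 1 CPM per kilobase except *Tyms*, at 0.926. That level rests on an exon length of 6089 bases, merged over all annotated transcripts, and no other length was tried.

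Of the mitotic genes, *Aurka* alone had a mean above 1 CPM per kilobase, at 1.15 (range 0.712 to 1.64). *Cdc20* stood at 0.781 and *Ccnb2* at 0.728, and the ranges of these 3 genes overlapped. *Ccna2*, *Mki67*, *Kif20a*, *Cdk1* and *Plk1* lay close together, from 0.398 down to 0.332 CPM per kilobase. The lowest was *Ccnb1*, which encodes the mitotic cyclin B1, at 0.0445 CPM per kilobase, with the kinetochore gene *Cenpf* at 0.0499 and the checkpoint kinase gene *Bub1* at 0.0532. The ranges of these 3 overlapped as well, and *Ccnb1* and *Bub1* rested on 2 to 12 and 2 to 10 reads per library. Every member gave at least 2 reads in each library.

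**Figure D2:**
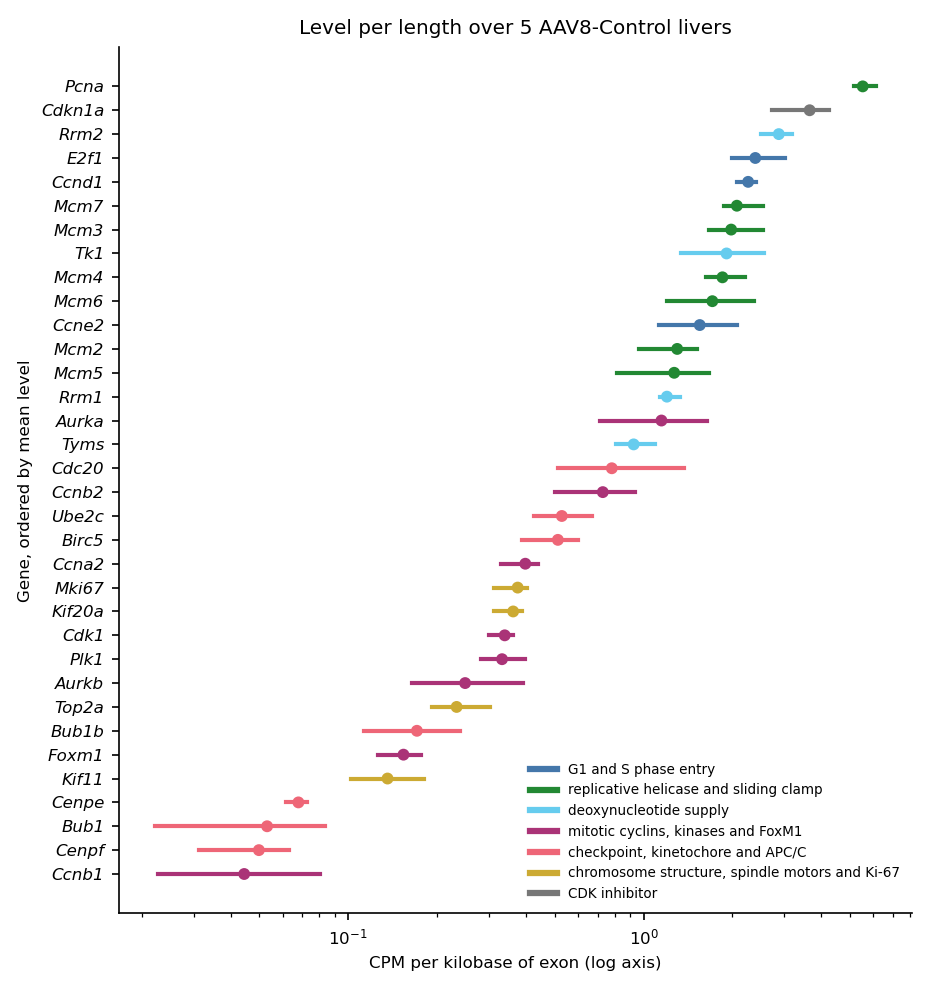
Mean level of each of the 34 genes in CPM per kilobase of exon on a log axis, ordered by level and coloured by role, with lines from the lowest to the highest of the 5 AAV8-Control livers. Replication genes lie mostly above 1 CPM per kilobase and mitotic genes mostly below it, from 5.52 for *Pcna* to 0.0445 for *Ccnb1*.

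Of the genes of G1 and S phase entry, *Ccnd1* encodes cyclin D1, the growth-factor-induced partner of CDK4 and CDK6. It was at 11.3, 11.0, 9.8, 9.95 and 11.1 CPM in AAV8-Control replicates 1 to 5, a mean of 10.6 ± 0.705 CPM (SD, n = 5). The livers lay close together, with a coefficient of variation (CV, the SD over the mean) of 6.63%, where counting reads alone gives 6.32%. *Ccne2*, the cyclin E2 that fires S phase, was at 5.13, 7.27, 3.94, 6.49 and 4.3 CPM in replicates 1 to 5. Replicates 2 and 4 were high, and the CV of 26.2% was 2.96 times the counting error. T and NK cell, dendritic cell and cholangiocyte markers were high in these livers too. Stellate cell and B and plasma cell markers were lowest in replicate 4 (values are given with the marker sums). *E2f1*, the transcription factor that acts on replication genes, was at 9.49, 7.03, 6.28, 6.6 and 8.36 CPM in replicates 1 to 5, highest in replicates 1 and 5. Replicate 3 was the lowest liver for all 3 of these genes.

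The MCM proteins form the ring-shaped helicase that opens the DNA at each fork. The spread of its genes over separate livers was above counting error, as it was for most genes, with 12.6% of the genes of at least 1 CPM below that error. *Mcm6* was at 11.0, 6.74, 7.3, 5.58 and 9.18 CPM in replicates 1 to 5. *Mcm5* was at 6.67, 5.25, 4.79, 3.24 and 5.32 CPM. Replicate 1 was highest and replicate 4 lowest for both, by 1.98 times for *Mcm6* and 2.06 times for *Mcm5*. *Mcm2* was at 10.6, 8.67, 9.75, 6.74 and 9.52 CPM in replicates 1 to 5, again lowest in replicate 4. *Mcm3* was at 9.49, 6.21, 7.52, 6.27 and 7.68 CPM, with replicates 2 and 4 the low livers. The CVs of these 4 subunits were 16.1% to 27.0%, between 2.35 and 3.7 times the counting error.

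The other helicase subunits had another order of livers. *Mcm4* was at 7.23, 6.11, 5.86, 6.12 and 7.93 CPM in replicates 1 to 5, highest in replicates 5 and 1. *Mcm7* was at 8.26, 8.86, 8.59, 8.86 and 11.3 CPM, so that replicate 5 stood apart and replicate 1 was the lowest. *Pcna* was at 12.4, 13, 12.5, 13.7 and 14.7 CPM, a mean of 13.3 ± 0.954 CPM (SD, n = 5). It was the steadiest gene of this role, with a CV of 7.2% against 5.66% from counting.

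Deoxynucleotides come from ribonucleotide reductase, which turns ribonucleotides into their deoxy forms, and from enzymes that make and salvage thymidylate. *Rrm1*, the large subunit of the reductase, was at 13.2, 14.7, 13, 12.5 and 12.7 CPM in replicates 1 to 5. *Rrm2*, the small subunit, was at 7.74, 8.19, 8.79, 6.89 and 8.22 CPM. Both were nearly level over the livers, with CVs of 6.46% and 8.87% that were 1.14 and 1.21 times the counting error. *Rrm1* had the higher reads, and per kilobase of exon it was the lower of the pair, at 1.2 against 2.87 CPM per kilobase. Its range of 1.14 to 1.33 did not meet the range of 2.49 to 3.17 for *Rrm2*. This order rests on exon lengths of 11012 bases for *Rrm1* and 2771 bases for *Rrm2*, merged over all annotated transcripts. The ranges over livers do not cover that choice of length.

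*Tyms*, the thymidylate synthase that makes dTMP from dUMP, was at 6.67, 4.91, 5.63, 5.94 and 5.03 CPM in replicates 1 to 5. *Tk1*, the thymidine kinase of the salvage pathway, was at 13.2, 9.24, 6.99, 10.4 and 9.71 CPM. Replicate 1 was highest for both. *Tk1* varied the most of this role, with a highest liver at 1.89 times the lowest and a CV of 22.7%, which was 3.47 times the counting error, while *Tyms* had a CV of 12.7%.

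Among the mitotic cyclins and kinases, *Cdk1*, the kinase that drives entry into mitosis, was at 1.49, 1.78, 1.69, 1.71 and 1.69 CPM in replicates 1 to 5. *Ccna2*, the cyclin A2 of S phase and early mitosis, was at 1.79, 1.35, 1.69, 1.75 and 1.55 CPM. The livers were nearly level for both, with CVs of 6.59% and 11.1%, less than the 15.9% and 16.2% that counting reads gives. *Ccnb2*, the cyclin B2 partner of CDK1, was at 1.44, 0.77, 0.93, 1.28 and 1.16 CPM, and its CV of 23.9% was 1.22 times the counting error. *Ccnb1* ranged from 0.0963 to 0.338 CPM around a mean of 0.188 ± 0.101 CPM (SD, n = 5). At 2 to 12 reads per library, differences between livers were not detectable for this gene.

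*Aurka*, the Aurora kinase of the centrosome, had the largest ratio of spread to counting error among these cyclins and kinases, on 53 to 81 reads per library. It was at 4.15, 2.55, 1.8, 2.84 and 3.19 CPM in replicates 1 to 5, highest in replicate 1 and lowest in replicate 3, with a CV of 29.7% at 2.46 times the counting error. *Aurkb*, the kinase of the chromosomal passenger complex, was at 0.615, 0.867, 1.15, 0.547 and 0.483 CPM. Its highest liver was replicate 3, where *Aurka* was lowest, and its CV of 37.8% was 1.57 times the counting error. That CV was larger than the CV of *Aurka*, on 10 to 41 reads per library, so the ratios are not alike in depth. *Plk1*, a kinase of mitotic entry, ranged from 0.62 to 0.872 CPM, and *Foxm1*, the transcription factor of mitotic genes, from 0.722 to 1.01 CPM. Neither varied by more than counting, at 0.621 and 0.571 times that error.

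Of the checkpoint, kinetochore and APC/C genes, *Cdc20* was the one with a liver far from the rest. It was at 2.56, 1.35, 0.958, 1.31 and 1.11 CPM in replicates 1 to 5, on 23 to 50 reads. *Ube2c*, the ubiquitin-conjugating enzyme of APC/C, was at 1.74, 1.11, 1.32, 1.2 and 1.5 CPM. Replicate 1 was highest for both, but for *Ube2c* the CV of 18.4% was 1.04 times the counting error. *Birc5*, which encodes survivin of the passenger complex, was at 1.59, 1.83, 1.32, 2.04 and 1.93 CPM, highest in replicate 4.

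The remaining genes of this role rested on few reads. *Bub1b*, a checkpoint protein that holds back APC/C, ranged from 0.483 to 1.03 CPM and was highest in replicate 1. *Cenpf*, a kinetochore protein of G2 and mitosis, ranged from 0.481 to 0.974 CPM and was highest in the same liver. *Cenpe*, the kinetochore motor, lay between 0.532 and 0.626 CPM, with the smallest ratio of spread to counting error of the 34 genes, 0.249. *Bub1* lay between 0.0967 and 0.364 CPM, at 2 to 10 reads, with its lowest liver under the 3 reads taken as detected.

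For the genes of chromosome structure, spindle motors and Ki-67, little spread beyond counting error was resolved at this depth. *Mki67*, a protein that coats mitotic chromosomes and marks cycling cells, was at 3.95, 3.76, 3.97, 3.13 and 4.06 CPM in replicates 1 to 5, a mean of 3.77 ± 0.374 CPM (SD, n = 5). *Top2a*, the topoisomerase that untangles sister chromosomes, was at 1.79, 1.93, 2.31, 2.73 and 1.74 CPM. Replicate 4 was the lowest liver for *Mki67* and the highest for *Top2a*. *Kif11*, the motor that pushes the spindle poles apart, was at 0.821, 0.963, 0.761, 1.17 and 1.35 CPM, and *Kif20a*, a motor of cytokinesis, at 1.64, 1.54, 1.63, 1.68 and 1.35 CPM. Replicate 5 was the highest for *Kif11* and the lowest for *Kif20a*. CVs of this role ran from 8.33% to 24.3%, at 0.506 to 1.4 times the counting error.

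*Cdkn1a*, the target of p53 that stops the cycle in G1, was at 11.4, 14.8, 13.9, 9.66 and 15.1 CPM in replicates 1 to 5, a mean of 13 ± 2.36 CPM (SD, n = 5). It was lowest in replicate 4 and, unlike many of the replication genes, low in replicate 1 as well. The CV of 18.2% was 3.18 times the counting error.

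**Figure D3:**
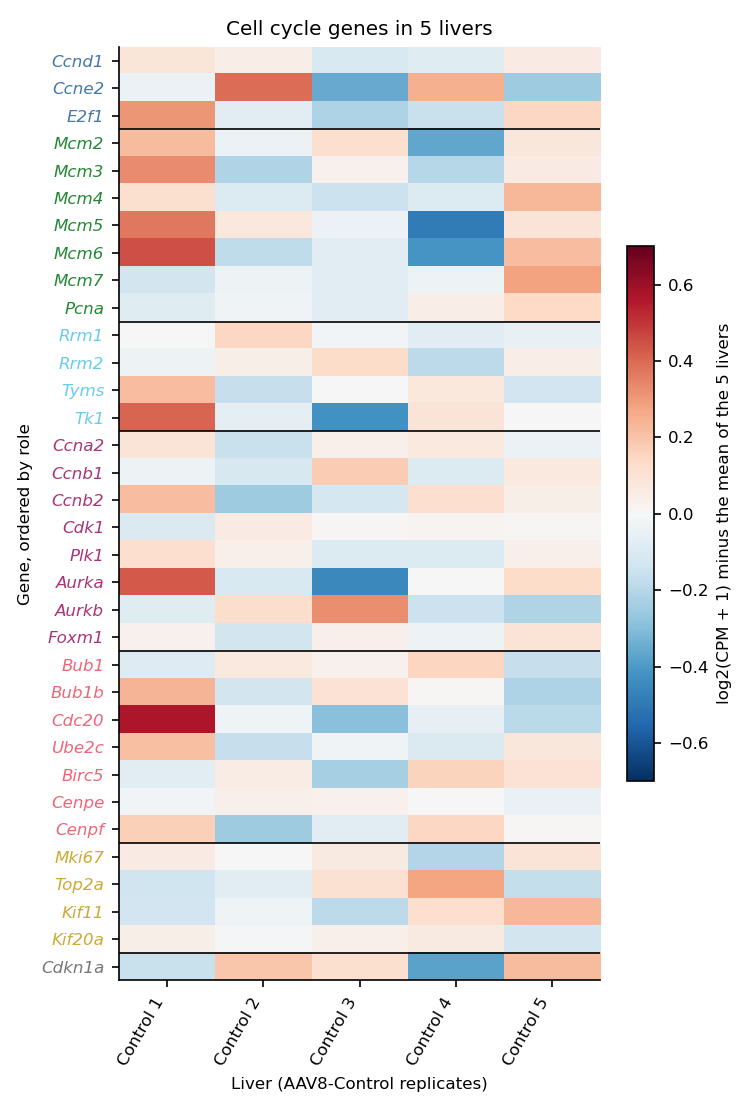
Each liver's log2(CPM + 1) minus the gene's mean over the 5 AAV8-Control livers, for the 34 genes in rows grouped by role and the livers in columns, in red above and blue below the mean. Replicate 1 is the highest liver for 16 of 34 genes, and the row of *Mcm5* is bluest in replicate 4.

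Replicate 1 was the highest of the 5 livers for 16 of 34 members (47.1%) and the lowest for 3. The same liver was the highest for 34.1% of all 15126 genes and for 37.8% of the 11041 genes of at least 1 CPM, so its place among the members is read against that share. It was the highest for 4 of 7 helicase and clamp genes, 8 of 19 mitotic genes (42.1%) and none of the 4 genes of chromosome structure, spindle motors and Ki-67. Replicate 5 followed with 7 of 34 members (20.6%), beside 17.5% of all genes. The lowest liver was replicate 3 for 9 of 34 members (26.5%), beside 20.4% of all genes, and replicates 2 and 4 for 8 each (23.5%), beside 18.5% and 27.6% of all genes.

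On log2(CPM + 1), the mean deviation of the helicase and clamp genes from their mean over the livers was 0.18 in replicate 1, 0.155 in replicate 5 and -0.222 in replicate 4. That of all genes was 0.053, -0.011 and -0.037 in these livers. The genes of deoxynucleotide supply deviated by 0.148 in replicate 1 and by no more than 0.078 to either side in the others. The mitotic genes deviated by 0.077 in replicate 1 and by -0.057 in replicate 2. Adding 1 to the CPM shrinks the deviations of weak genes, so the mitotic and helicase values are not alike in scale. The 19 mitotic genes summed to 28.3, 23.4, 23.8, 25.6 and 25 CPM in replicates 1 to 5, or 25.2 ± 1.92 CPM (SD, n = 5), and the 7 helicase and clamp genes to 65.6, 54.9, 56.3, 50.5 and 65.6 CPM. Replicates 1 and 5 stood above the others in the helicase and clamp sum.

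Spread was also read against counting error for each member. The CV exceeded the counting error by more than 2 times for 10 of the 34 members (29.4%), beside 36.9% of all genes. All 10 were among the 26 members of at least 1 CPM (38.5%), beside 48.9% of all genes at that level. Those genes had a lower counting error, with a median of 5.17% against 8.76% for these 26 members, so the shares are not alike in depth. The 10 members were *Ccne2*, *E2f1*, *Mcm2*, *Mcm3*, *Mcm5*, *Mcm6*, *Tk1*, *Aurka*, *Cdc20* and *Cdkn1a*. The CV was below the counting error for 7 members, *Ccna2*, *Cdk1*, *Plk1*, *Foxm1*, *Cenpe*, *Mki67* and *Kif20a*. That is 20.6% of the members, as it is 20.6% of all genes. Of the 26 members of at least 1 CPM, 4 were below it (15.4%), beside 12.6% of all genes at that level. These 7 are mitotic genes, which have the fewest reads of the set, with counting errors of 10.6% or more against at most 9.17% for the other members. Over the members of at least 1 CPM the median CV was 17.1%, beside 10.6% over all such genes.

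**Figure D4:**
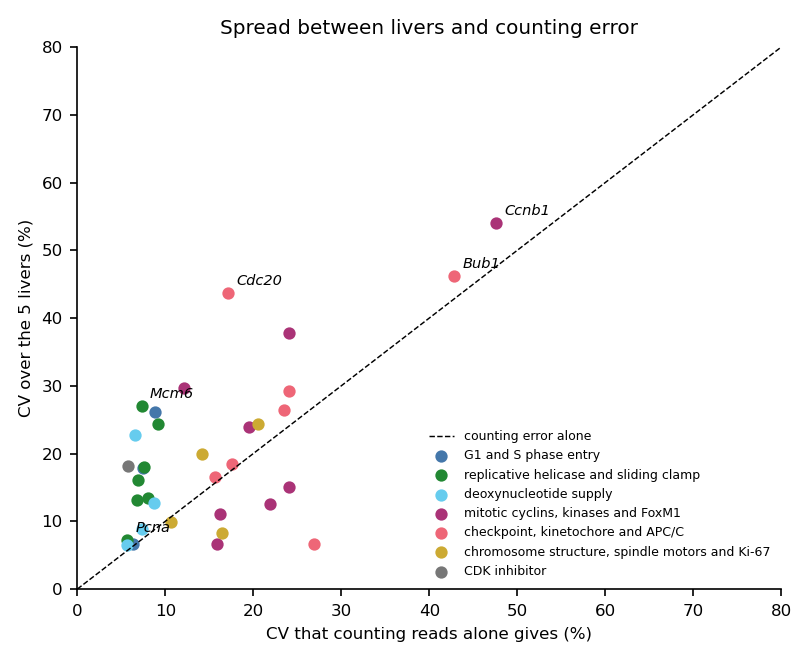
The CV over the 5 AAV8-Control livers against the CV that counting reads alone gives, both in percent, for the 34 genes coloured by role, with a dashed line where the values are equal. *Mcm6* lies at 27.0% against 7.3% and *Cdc20* at 43.7% against 17.1%, above the line, while *Cenpe* lies below it at 6.71% against 26.9%.

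Markers of other cells moved between these livers too. Summed T and NK cell markers stood at 7.46 and 7.65 CPM in replicates 2 and 4 and at 1.59 to 2.21 CPM in the other livers, for 12 of 12 markers listed. Summed dendritic cell markers were at 2.84 and 2.92 CPM in the same replicates and at 1.35 to 1.64 CPM in the other livers. Summed cholangiocyte markers were at 42.7, 54, 33.5, 49.8 and 38.9 CPM in replicates 1 to 5, the same order of the 5 livers as for *Ccne2*. *Ccne2* was highest in replicates 2 and 4 as well, at 7.27 and 6.49 CPM against 3.94 to 5.13 CPM. The mitotic sums of these replicates were 23.4 and 25.6 CPM, beside 23.8 to 28.3 CPM in the other livers. Not every list was high in both. Stellate cell markers were highest in replicate 2, at 364 CPM, and lowest in replicate 4, at 267 CPM. So were B and plasma cell markers, at 2.55 and 1.13 CPM. Macrophage markers were at 405 and 242 CPM, beside 198 to 360 CPM in the other livers. Neutrophil markers were at 2.41 and 1.9 CPM, beside 1.4 to 2.99 CPM. Summed erythroid markers were at 372, 287, 306, 312 and 316 CPM in replicates 1 to 5, highest in replicate 1 and lowest in replicate 2, as the mitotic sum was. Summed endothelial markers were at 230.0, 166, 203, 113 and 161 CPM in replicates 1 to 5, beside helicase and clamp sums of 65.6, 54.9, 56.3, 50.5 and 65.6 CPM. Replicate 1 was highest and replicate 4 lowest in both, but replicate 5, which shared the highest helicase and clamp sum, had the second lowest endothelial sum. Summed hepatocyte markers ranged from 98524 CPM in replicate 1 to 133225 CPM in replicate 4. No marker that had an entry among the 15126 genes was at 0 in every liver. The part of cell composition in *Ccne2*, the replication genes and the mitotic sum was not tested.

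The wider pathway was read from 195 further genes of replication, cell cycle control, mitosis and growth signals. Of these, 144 (73.8%) averaged 1 CPM or more, and their median level was 0.825 CPM per kilobase. Deoxynucleotide metabolism was the list with the highest median, 5.41 CPM per kilobase over 10 genes. It was led by *Shmt1*, the serine hydroxymethyltransferase of the cytosol, at 59.6, and *Dctpp1*, which breaks down dCTP, at 28.9. The spindle, chromosome condensation and cytokinesis list was lowest, at 0.153 over 40 genes, of which 16 reached 1 CPM. Its highest genes were *H2afx*, a histone variant marked at DNA breaks, at 6.68 and the tubulin gene *Tuba1b* at 1.78 CPM per kilobase. The list of mitotic entry and spindle checkpoint had a median of 0.464, although *Pttg1*, the securin that guards cohesin, stood at 15.9 and the APC/C subunit gene *Anapc5* at 13.

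Of origin licensing and firing, with a median of 0.984 CPM per kilobase, *Gins4*, a subunit of the active helicase, was highest at 10.3, and *Gmnn*, the licensing inhibitor geminin, followed at 3.35. The replication fork list had a median of 0.796, with *Pold2*, a polymerase delta subunit, at 6.76 and *Rpa1*, which binds single-stranded DNA, at 6.65. Among G1 cyclins, CDKs, Rb and E2F (median 1.3), the cyclin D partner *Cdk4* stood at 7.82 and *E2f4*, the E2F of resting cells, at 7.0 CPM per kilobase. CDK inhibitors had a median of 1.89, led by *Cdkn1b*, which encodes p27, at 3.53 and *Cdkn2c*, which encodes p18, at 2.9, beside 3.65 for *Cdkn1a*.

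Genes of p53 and its targets had a median of 3.83 CPM per kilobase. Their median CV was 17.7%, where counting gave 5.91%. *Plk3*, a stress kinase, was at a mean of 46.4 ± 25.6 CPM and *Trp53inp1*, a p53-induced nuclear protein gene, at 116.0 ± 21.3 CPM (SD, n = 5 each). The list summed to 521.0 CPM in replicate 1 and 442.0 CPM in replicate 5, above the 380.0 to 389.0 CPM of the other livers. Of the growth cues upstream of *Ccnd1* (median 2.24 CPM per kilobase), *Ctnnb1*, which encodes beta-catenin, stood at 37.0 and *Met*, the receptor of hepatocyte growth factor, at 8.5 CPM per kilobase.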

How the data were processed

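RNA-seq of 5 AAV8-Control *db/db* livers used poly-A selected RNA and single reads of 50 bases. Per the paper's methods and the submitters' processing notes, the authors aligned reads with STAR 2.0.4b to Ensembl release 76 (GRCm38.p2) and counted uniquely aligned reads with featureCounts 1.4.5. The authors deposited the counts as CPM, in 15236 lines for 15126 genes, and how CPM were made is not given in the sources used here. Dividing by the CPM of a single read gave whole reads for 100% of values within 0.02 reads. Recovered totals were 19499795 to 35498596 reads, which leaves the weakest members at a few reads. A comparison that the series also allows is not reported here, and values are levels and spreads in 1 group.

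The counting error of a gene is the CV that Poisson sampling of its recovered reads gives, and covers counting error only. Deviations used log2(CPM + 1), a pseudocount of 1, which understates low genes. Alternatives were TMM factors from edgeR 4.0.16 and DESeq2 1.42.0 size factors in R 4.3.3, used as scalings alone, a motif window of 250 bases before the start, and each liver left out. Chi-square over its degrees of freedom was 15.9 or more for every pair of livers, so none were duplicates. Gene positions and exon lengths came from GENCODE release M21 (GRCm38), and promoters from RefSeq (GRCm38.p6). An exon length counts the merged exons of every annotated transcript, so it can exceed the length of the transcript made in liver. Levels per kilobase and their order carry this limit, and no other length was tried. The members and lists were chosen with earlier results of these data known. Every member is named, with the 2 genes of highest level per length in each wider list, a rule set after values were seen. The markers *Ly6g* and *Ahsp* had no entry under these names among the 15126 genes and were not analysed here.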

Additional observations from a re-analysis of the deposited data

Results flagged for a closer look

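Dixon's rule was applied to the 5 AAV8-Control livers for each of the 34 members, and 2 values met it. *Mcm7* was at 11.3 CPM in AAV8-Control replicate 5, beside 8.26 to 8.86 CPM in the other livers. *Cdc20* was at 2.56 CPM in AAV8-Control replicate 1, beside 0.958 to 1.35 CPM in the other livers. Chance flags about 1 in 20 groups, so 2 of 34 is near the number that chance gives.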

How the results depend on the processing

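The number of members averaging 1 CPM or more was 26 under TMM scaling and DESeq2 size factors, and 25 to 26 with a liver left out. The median level of the members was 0.75 CPM per kilobase under both scalings and 0.654 to 0.803 with a liver left out. The sum of the 19 mitotic genes was 25.2 CPM under both scalings and 24.5 to 25.7 with a liver left out. For single members, the mean moved by at most 0.875% under the scalings, for *Cdc20*, and by at most 20% with a liver left out, for *Ccnb1*, from 0.188 to 0.15 CPM without AAV8-Control replicate 3. In the 250 bases before the start, without the bases after it, 14.8% of members held an E2F-like string, 51.9% a CHR-like string and 81.5% CCAAT, beside 3.89%, 20.6% and 40.5% of genes of at least 1 CPM. Mitotic genes without a CHR-like string were then 4 of 15, *Bub1* with *Aurka*, *Bub1b* and *Cenpe*, which held it only after the start. The alternatives planned for a test between conditions (another pseudocount, no filter on low values, edgeR and DESeq2 tests and the replicate number as a block) do not apply to levels in 1 group. No paired analysis was possible because the results are levels in 1 group and come from no test. Depth limits the weakest genes, *Ccnb1* and *Bub1*, at 2 to 12 and 2 to 10 reads per library.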
